A study of Homo sapiens with 6 samples.

Results

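The progesterone, glucocorticoid, mineralocorticoid and estrogen receptors and the estrogen-related receptor alpha were followed as transcripts in prostate cancer cells. The set held 6 of the 17356 gene symbols listed, PGR, NR3C1, NR3C2, ESR1, ESR2 and ESRRA, and all 6 were listed in every library. They were picked by symbol, but the list was selected on earlier results of this same contrast. Their differences are therefore given as a description, without p-values.

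RNA-seq was available for 6 libraries of C4-2B-ENZR, a human prostate cancer line derived from castration-resistant C4-2B cells and resistant to enzalutamide, an antiandrogen drug. In 3 libraries, labelled siKIF15, the cells had received an siRNA against KIF15, a mitotic kinesin. In 3 libraries, labelled NC, they had received a negative control siRNA, so all cells had been transfected. Cells of both groups grew in medium with fetal bovine serum, and the labels name no added steroid, no enzalutamide treatment and no time after transfection. The siRNA sequences and the number of siRNAs are not given in the sources used here, and all libraries came from 1 cell line. The labels do not say whether replicates were separate cultures, so all errors and p-values refer to variation among these 6 libraries, part or all of which may be technical.

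Steroid receptors are transcription factors that bind a hormone, in most cases after being held by heat shock protein chaperones, and then bind DNA and recruit coregulators. In prostate cancer the glucocorticoid receptor is known for a rise under antiandrogens, which can sustain growth. The progesterone receptor gene is a classical estrogen target in breast and uterus. The estrogen-related receptors resemble the estrogen receptors in sequence but are not known to bind natural estrogens. They act on mitochondrial genes with the coactivators PPARGC1A and PPARGC1B.

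The targeted transcript did not follow its label. KIF15 had 294.8, 333.1 and 363.0 units of deposited signal in the libraries labelled siKIF15, against 366.4, 403.6 and 319.0 in NC libraries, where a unit appears to be close to 1 read after adjustment to a common library size. The groups overlapped, and the log2 difference was −0.13 ± 0.14 (SE), with a limma adjusted p of 0.565. With a correction for GC content and length it was −0.06 (limma, adjusted p = 0.739). Directions given for siKIF15 therefore belong to the libraries labelled so. Transcripts of luminal prostate epithelium were abundant throughout: 8 luminal markers summed to between 228459.4 and 261265.2 in siKIF15 libraries and between 213502.4 and 224805.7 in NC libraries. Transcript GC content was set against each gene's deviation from its mean in the library's own group. Spearman correlations were 0.44, 0.43 and −0.63 in siKIF15 libraries 1, 2 and 3 and 0.14, −0.25 and 0.15 in NC libraries 1, 2 and 3. They cover 13336 genes with a GENCODE length and a mean of at least 10. Transcript length gave 0.03, −0.53 and 0.44 in siKIF15 libraries and −0.19, 0.06 and 0.12 in NC libraries. The siKIF15 libraries thus differed among themselves in composition, and these correlations do not measure a shift between groups. Values under a GC content and length correction are given beside many, but not all, of the results that it moved.

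Of the 6 receptors, 1 was higher and 1 was lower in siKIF15 by the fit across all genes: NR3C1 was the higher one and PGR the lower one. Across 16548 genes tested with limma on log2(signal + 1), 18.0% passed an adjusted p of 0.05, 9.66% higher and 8.33% lower in siKIF15. The calls were 1599 higher and 1379 lower, against 1205 higher and 1753 lower with libraries scaled to the same total, and 1638 higher and 3408 lower with the GC content and length correction. The 2 receptors were also those whose libraries did not overlap between groups, a separation shown by 34.8% of all genes tested. Because the list was selected on this contrast, nothing is read from these counts. The lists of related genes below were also chosen with earlier results of these data known. Their counts and shares are likewise only a description. The median log2 difference of the 6 receptors was −0.06, beside −0.00 over all genes tested. With the GC content and length correction 1 receptor was higher and 2 were lower, and these medians were −0.116 and −0.075.

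**Figure D1:**
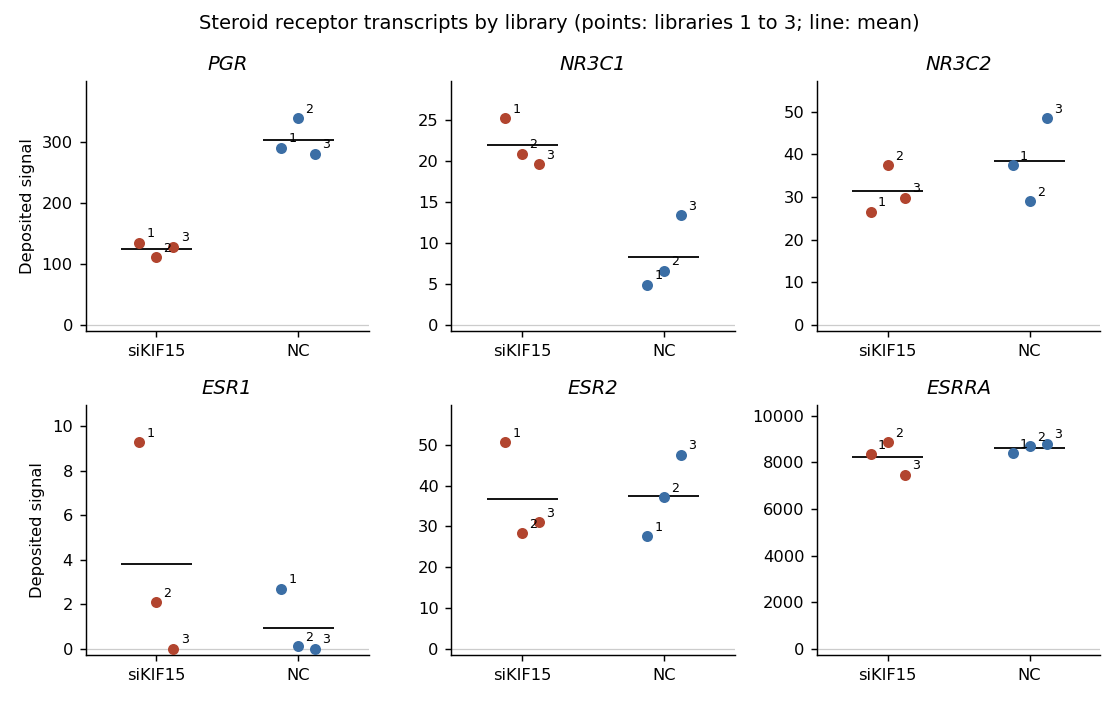
Deposited signal of each steroid receptor in the 3 siKIF15 libraries and the 3 NC libraries on linear axes, 1 panel per gene. Points are libraries with their replicate number and lines are group means. PGR and NR3C1 are the panels in which the groups do not overlap, and ESR1 lies close to 0 in most libraries.

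The progesterone receptor PGR was lower in siKIF15. It had 134.5, 110.8 and 127.9 units of signal in siKIF15 libraries, against 290.1, 338.3 and 280.3 in NC libraries. Every siKIF15 library lay below every NC library, and the highest siKIF15 value was less than the lowest NC value by more than the range within either group. The means were 124 ± 12.2 in siKIF15 and 303 ± 31.0 in NC (SD, n = 3 each), so the NC mean was 2.43 times the siKIF15 mean. The log2 difference was −1.28 ± 0.16 (SE), with a 95% interval of −1.62 to −0.93. It ranked 285 from the lowest of the 16548 genes tested. The difference was −1.01 after the correction for GC content and length, and lay between −1.34 and −1.20 with each library left out. In GENCODE the antisense gene PGR-AS1 overlaps PGR on the opposite strand. As the sources used here do not state whether counting used strand, reads of the pair cannot be told apart.

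The glucocorticoid receptor NR3C1 was higher in siKIF15, at a low level. It had 25.2, 20.9 and 19.6 units of signal in siKIF15 libraries, against 4.9, 6.6 and 13.4 in NC libraries. The siKIF15 libraries lay close together and above all NC libraries, and NC 3 stood nearest to them. On the log2(signal + 1) scale, which understates changes of low genes, the difference was 1.40 ± 0.44 (SE), with a 95% interval of 0.47 to 2.33. It was 1.12 without NC 1 and 1.77 without NC 3. NR3C1 did not pass the threshold in 6 of 15 alternatives. These were without siKIF15 1 (log2 difference 1.30), siKIF15 2 (1.43), NC 1 (1.12) or NC 2 (1.31), with quantile normalization (1.20) and without the variance trend (1.40). NR3C1 is also known from fibroblasts, leukocytes and other cells. In bulk RNA a change in the number of cells of a type and a change in RNA per cell cannot be told apart. The labels name 1 cell line and no other cell type. The 5 fibroblast markers summed to between 452.0 and 503.2 in siKIF15 libraries and between 480.5 and 528.9 in NC libraries, most of it from COL1A1 and PDGFRB. COL3A1 and LUM were at or near 0 in both groups, whereas FAP was listed at 7.2, 6.3 and 6.2 in siKIF15 libraries and at 0.0, 2.3 and 0.0 in NC libraries, and passed the threshold (limma, adjusted p = 0.0296). The 3 leukocyte markers listed summed to between 3.0 and 33.9 in siKIF15 libraries and between 16.0 and 32.1 in NC libraries. Nearly all of that was CD14, with 3.0, 32.2 and 29.8 in siKIF15 libraries and 20.4, 32.0 and 12.1 in NC libraries, a level like that of NR3C1 itself. PTPRC was listed at 0.0 in every siKIF15 library and at 3.8 or less in NC libraries. The 3 endothelial markers summed to between 318.0 and 414.5 in siKIF15 libraries and between 313.3 and 334.2 in NC libraries, mostly VWF. PECAM1 had 5.5, 2.1 and 2.1 in siKIF15 libraries and 0.0, 1.2 and 0.0 in NC libraries. None of the endothelial markers passed the threshold. The 3 basal epithelial markers summed to between 36.3 and 60.4 in siKIF15 libraries and between 2.2 and 20.4 in NC libraries, mostly KRT14. KRT14 had 54.0, 51.1 and 33.2 in siKIF15 libraries and 2.2, 18.1 and 9.5 in NC libraries, and passed the threshold (limma, adjusted p = 0.00518). KRT5 and TP63 were at 5.2 or less in every library and did not pass. The part of FAP, CD14 and the basal and endothelial markers in the NR3C1 difference was not tested.

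The sequence around the start of PGR and of NR3C1 is shown because these were the receptors with the largest separation between groups. RefSeq promoter windows on GRCh38.p14, each running from upstream of a transcript start to just past it, were found for 6 of 6 receptors. They were searched on both strands for GGTCA, 1 arm of the estrogen response element, the full element GGTCANNNTGACC that contains it, TGTTCT, 1 arm of the glucocorticoid response element, the GC box GGGCGG bound by Sp1-type factors, the STAT site TTCNNNGAA and the interferon-stimulated response element core TTTCNNTTTC. Capitals mark matches, with positions counted from the transcript start to the leftmost base of the match. The PGR window, chr11:101129028-101129327 on the minus strand, is 1 of 3 for this gene, and the NR3C1 window, chr5:143404187-143404486 on the minus strand, is 1 of 7.
PGR: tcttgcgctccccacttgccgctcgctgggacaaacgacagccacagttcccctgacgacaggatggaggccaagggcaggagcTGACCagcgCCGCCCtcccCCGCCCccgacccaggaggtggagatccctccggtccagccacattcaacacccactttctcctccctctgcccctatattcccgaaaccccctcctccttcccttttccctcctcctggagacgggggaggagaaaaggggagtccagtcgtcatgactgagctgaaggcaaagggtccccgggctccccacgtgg
NR3C1: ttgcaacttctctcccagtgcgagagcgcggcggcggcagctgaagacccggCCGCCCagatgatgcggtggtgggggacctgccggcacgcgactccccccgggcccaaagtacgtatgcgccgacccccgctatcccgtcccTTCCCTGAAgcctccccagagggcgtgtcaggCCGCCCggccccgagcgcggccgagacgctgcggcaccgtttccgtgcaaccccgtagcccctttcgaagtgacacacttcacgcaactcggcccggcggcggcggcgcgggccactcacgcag

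In the PGR window a GGTCA arm at −166 was followed by GC boxes at −157 and −147, all read on the opposite strand. Such an arm beside Sp1 sites is a textbook arrangement of the human PGR gene. GGTCA was found in 37.38% of 35116 promoter windows of all genes, and GGGCGG in 44.95%. The NR3C1 window held GC boxes at −198 and −74 and a STAT site at −106, a motif in 7.66% of all windows. It was printed for that match, which the other 6 windows of this gene do not hold. The share over single windows is therefore not a like comparison for it. Neither window held TGTTCT (14.79% of all windows), the full estrogen element (0.06%) or the interferon core (3.57%). These are matches of letters, and binding was not measured.

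The remaining 4 receptors did not pass the threshold. The mineralocorticoid receptor NR3C2, which binds aldosterone and also cortisol, had 26.6, 37.5 and 29.9 units of signal in siKIF15 libraries, against 37.5, 29.1 and 48.5 in NC libraries. The groups overlapped, and the log2 difference was −0.27 ± 0.31 (SE), with a 95% interval of −0.93 to 0.39. The estrogen receptor beta gene ESR2 had 50.7, 28.3 and 31.0 in siKIF15 libraries, against 27.6, 37.2 and 47.6 in NC libraries. Here 1 library of each group was high and the groups covered nearly the same range, with a log2 difference of −0.04 ± 0.33 and an interval of −0.74 to 0.65. Its sign turned without siKIF15 2 (0.11), siKIF15 3 (0.05) or NC 3 (0.14).

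The estrogen receptor alpha gene ESR1 was close to the floor of the values. It was listed at 9.3, 2.1 and 0.0 in siKIF15 libraries, against 2.7, 0.1 and 0.0 in NC libraries. Most of its signal came from replicate 1 of each group, and the groups overlapped. No fold is given, and the log2(signal + 1) difference of 1.03 ± 0.92 had an interval of −0.94 to 2.99. GENCODE places an intronic gene inside ESR1 on the same strand, and an overlapping gene on the strand of ESR2. Signal this low could come from either gene of such a pair.

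ESRRA, the orphan receptor that acts on mitochondrial genes, was by far the most abundant of the 6. It had 8358.3, 8874.1 and 7465.3 units of signal in siKIF15 libraries, against 8392.9, 8684.3 and 8798.8 in NC libraries. The groups overlapped, with siKIF15 3 the lowest library. The means were 8233 ± 713 in siKIF15 and 8625 ± 209 in NC (SD, n = 3 each), and the log2 difference was −0.07 ± 0.07 (SE), with an interval of −0.23 to 0.09. Under the GC content and length correction it was −0.24 and passed the threshold, the only alternative in which it did. The longest ESRRA transcript has 63.2% GC, the highest of the 6, and the longest PGR transcript has 41.4%. ESRRA has the pseudogenes ESRRAP1 and ESRRAP2 and overlaps TRMT112 on the opposite strand, so its value is uncertain to the extent that reads were shared.

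**Figure D2:**
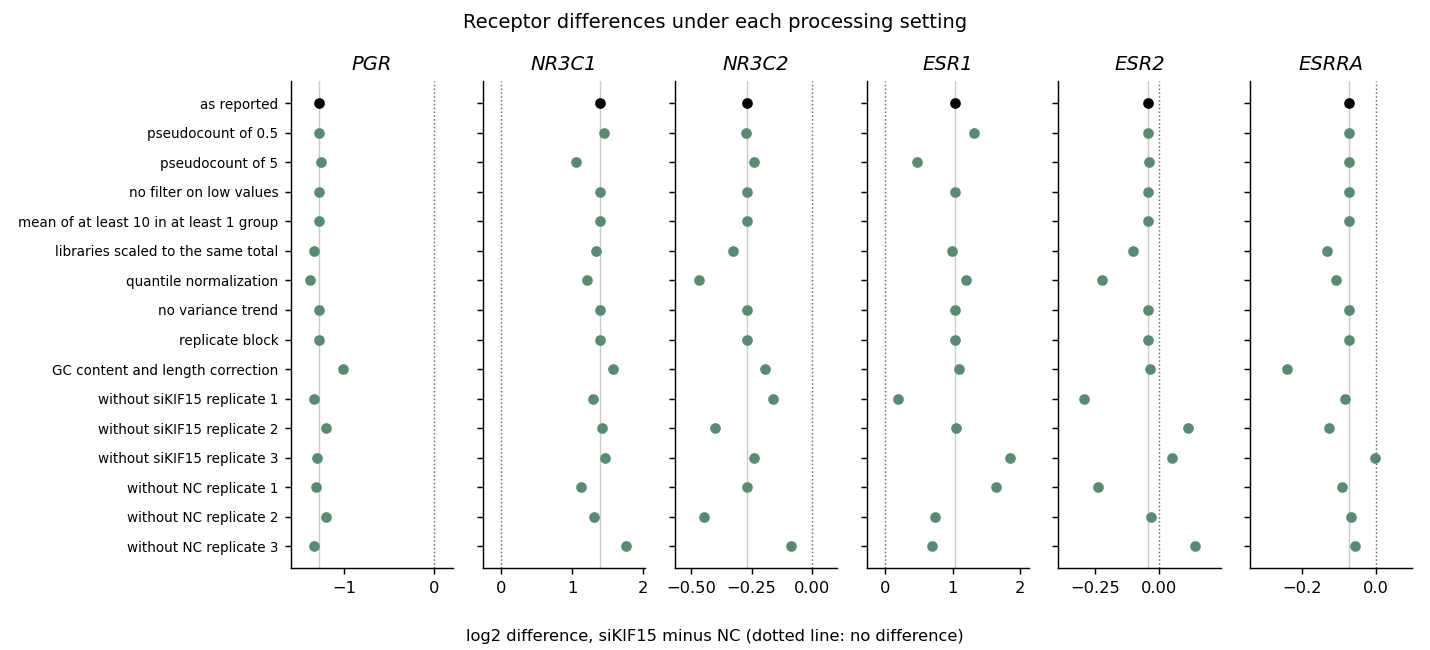
Log2 difference (siKIF15 minus NC) of each receptor as reported and under 15 alternatives (14 for ESR1, which the stricter filter removed), 1 panel per gene on its own linear axis. The grey line marks the reported value and the dotted line no difference. PGR stays between −1.38 and −1.01, and ESR2 lies on both sides of 0.

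Levels can be set against each other only per length. Per kilobase of the longest transcript, mean signal in siKIF15 and in NC was 3606 and 3778 for ESRRA, 9.05 and 22.0 for PGR, 6.72 and 6.87 for ESR2, 5.31 and 6.50 for NR3C2, 3.01 and 1.14 for NR3C1, and 0.588 and 0.142 for ESR1. The order was thus ESRRA, PGR, ESR2, NR3C2, NR3C1 and ESR1 in both groups. ESR2 and NR3C2 did not differ beyond their spread: ESR2 covered 5.19 to 9.29 and NR3C2 4.51 to 6.34 per kilobase in siKIF15 libraries, and 5.06 to 8.72 and 4.93 to 8.21 in NC libraries. With the median transcript length in place of the longest, NR3C1 stood above NR3C2 in siKIF15 (6.75 and 5.49 per kilobase) and below it in NC (2.56 and 6.72). Against all 17356 genes, not corrected for length, the mean of ESRRA was above 92.6% of genes in siKIF15 and 93.3% in NC. The mean of PGR was above 35.5% in siKIF15 and 41.8% in NC, and that of ESR1 above 15.6% in siKIF15 and 7.5% in NC.

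The other estrogen-related receptors were low. ESRRG had 17.8, 20.8 and 17.6 in siKIF15 libraries, against 17.7, 3.2 and 5.6 in NC libraries, so NC 1 was as high as siKIF15. The log2 difference of ESRRG was 1.30 ± 0.52 (limma, adjusted p = 0.101), and without NC 1 it was 1.91 (adjusted p = 0.0216). ESRRB was listed at 0.0, 2.1 and 4.1 in siKIF15 libraries, against 0.0, 1.4 and 5.8 in NC libraries. The log2 difference of ESRRB had an adjusted p of 0.991 by limma.

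Among 36 other nuclear receptors tested, 4 were higher and 6 lower in siKIF15, with a median log2 difference of −0.06. The 10 calls are 27.8% of the list, beside 18.0% of all genes tested, and libraries did not overlap for 16 of the 36, beside 34.8% of all genes. Correction for GC content and length gave 2 higher and 10 lower, in a fit where 5046 of 15986 genes passed, 3408 of them lower. The circadian repressors NR1D1 and NR1D2 were lower together. NR1D1 had 658.8, 641.2 and 619.1 units of signal in siKIF15 libraries, against 1386.7, 1150.0 and 1287.7 in NC libraries, and NR1D2 averaged 2263 ± 330 in siKIF15 and 3398 ± 75.4 in NC (SD, n = 3 each). The log2 differences were −0.99 for NR1D1 and −0.60 for NR1D2 (limma, adjusted p = 3.89e-06 and 0.000346). The retinoid receptor RARG was higher (log2 difference 0.43, adjusted p = 0.00144 by limma), as was the heterodimer partner RXRB (0.27, adjusted p = 0.0132). RXRG was listed at 16.0, 18.8 and 21.6 in siKIF15 libraries, against 0.0, 2.4 and 1.9 in NC libraries (limma, adjusted p = 0.00137), and no fold is given at this level. The call on RXRB ended without siKIF15 1 (adjusted p = 0.0539), NC 1 (0.0558), NC 2 (0.0815) or NC 3 (0.0566), all by limma. After the GC content and length correction RXRB was at 0.09 (limma, adjusted p = 0.181) and RARG at 0.26. Without the variance trend the calls on RXRB and RARG ended. The 10 calls of this list became 5 without siKIF15 1, NC 1 or NC 2, and 4 without NC 3. Over all genes the 2978 calls became 1184, 1802, 1366 and 1723 in these fits, in that order.

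**Figure D3:**
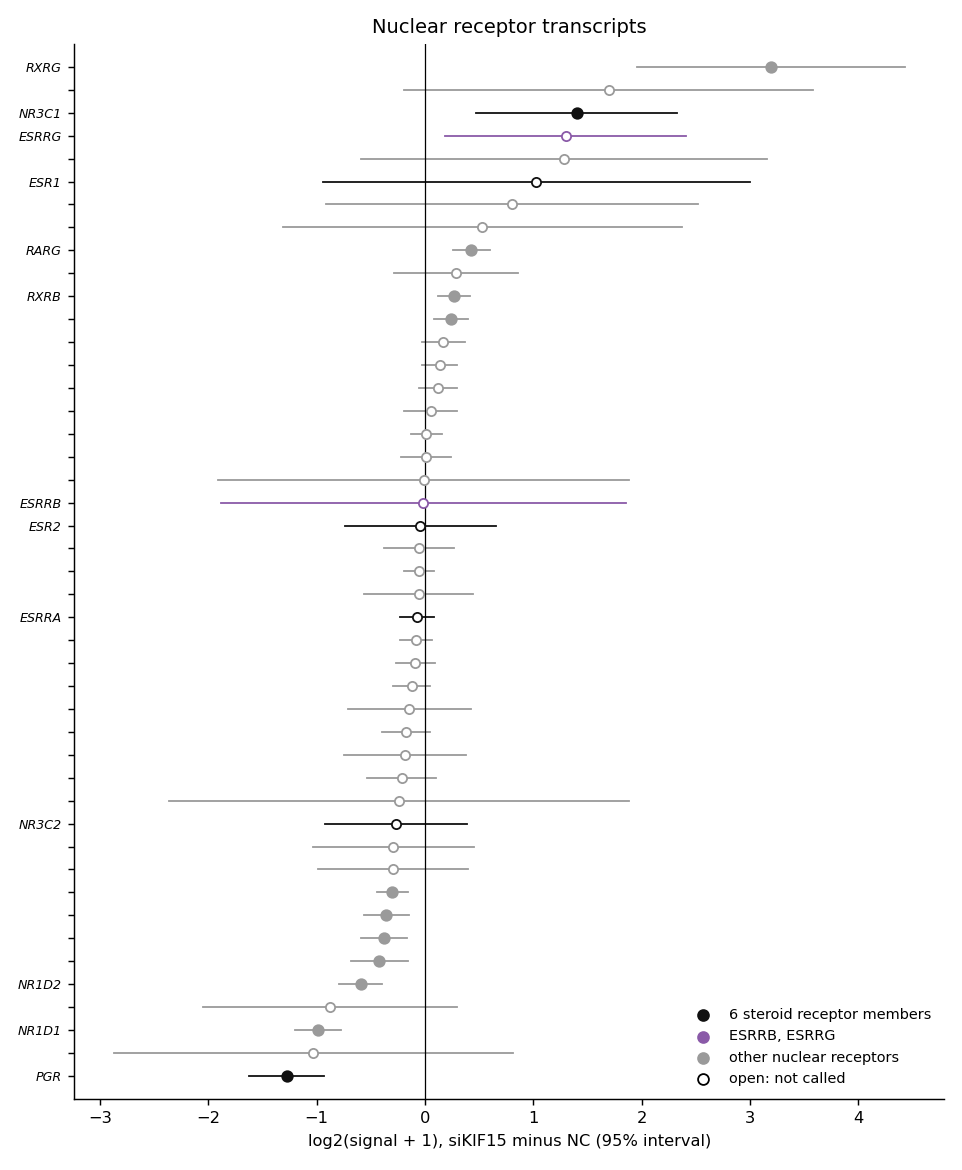
Log2 difference (siKIF15 minus NC) of the nuclear receptors tested, with 95% intervals from the fit across all genes. Black marks the 6 steroid receptors, purple ESRRB and ESRRG, grey the others, named where the text names them, and filled circles genes that passed an adjusted p of 0.05. PGR is the lowest at −1.28, NR3C1 lies at 1.40, and ESRRA lies near 0.

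Membrane proteins also bind steroids. Of 7 tested, against a share of 18.0% over all genes, the G protein-coupled estrogen receptor GPER1 was the 1 that passed. It had 5336.5, 5268.3 and 4524.1 units of signal in siKIF15 libraries, against 3593.7, 3572.4 and 3472.6 in NC libraries. All siKIF15 libraries were above all NC libraries, and the log2 difference was 0.50 ± 0.08 (SE; limma, adjusted p = 0.000293). The PGRMC and PAQR genes of this list, known as membrane progesterone receptors, did not pass. The list's median was 0.08, or 0.02 with the GC content and length correction. Of 16 chaperones and co-chaperones that fold steroid receptors, such as HSP90 and its immunophilin partners, 0 passed the limma threshold, 2 had an unadjusted p below 0.05, and 4 had libraries that did not overlap, beside 34.8% of all genes. Their median was −0.02. Leaving out siKIF15 3 gave 1 higher and 1 lower, and quantile normalization 2 lower, in fits where 5077 and 3104 genes passed. The GC content and length correction gave 1 higher and 8 lower, with a median of −0.13, in a fit where 5046 of 15986 genes passed.

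Of 18 coregulators that receptors recruit, 0 were higher and 4 lower in siKIF15, with a median of −0.07. The share called was 22.2%, near the 18.0% of all genes tested, and libraries did not overlap for 5 of 18, beside 34.8% of all genes. PPARGC1B, the coactivator of estrogen-related receptors, averaged 727 ± 123 units in siKIF15 and 1093 ± 73.1 in NC (SD, n = 3 each), a log2 difference of −0.60 (limma, adjusted p = 0.00301). The corepressor genes TBL1XR1 (−0.38, adjusted p = 0.0083), NRIP1 (−0.43, adjusted p = 0.0183) and NCOR1 (−0.35, adjusted p = 0.0416) were lower by the same limma test, and the libraries of NCOR1 overlapped. Its values were 5022.1, 3969.8 and 6006.0 in siKIF15 libraries and 5975.0, 6310.4 and 6520.0 in NC libraries. By limma, the call on TBL1XR1 ended without siKIF15 1 (adjusted p = 0.111) or NC 2 (0.0759). The call on NRIP1 ended without siKIF15 1 (adjusted p = 0.0882), siKIF15 2 (0.0641), NC 1 (0.0892) or NC 2 (0.103). That on NCOR1 ended without siKIF15 1 (adjusted p = 0.185), siKIF15 2 (0.137, log2 difference −0.19), NC 1 (0.0837), NC 2 (0.183) or NC 3 (0.149). The number of calls in the list was 1 without siKIF15 1 or NC 2, 2 without siKIF15 2 or NC 1, and 8 without siKIF15 3, of which 1 was higher. Over all genes, calls were 1184 without siKIF15 1 and 1366 without NC 2. They were 2187 without siKIF15 2, 1802 without NC 1 and 5077 without siKIF15 3, against 2978. Without the variance trend 0 coregulators passed, and 1070 genes over all. With the GC content and length correction 0 were higher and 7 lower, in the fit where 5046 of 15986 genes passed, 3408 of them lower. There TBL1XR1 was at −0.12, NCOR1 at −0.17 and NRIP1 at −0.24 (limma, adjusted p = 0.0557). PPARGC1A was low, with 31.8, 10.6 and 20.6 in siKIF15 libraries and 22.4, 12.3 and 23.8 in NC libraries (limma, adjusted p = 0.969).

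Known targets of the glucocorticoid receptor went both ways. Of 19 tested, 7 were higher and 3 lower in siKIF15, with a median of 0.25. The share called was 52.6%, beside 18.0% of all genes tested, and libraries did not overlap for 13 of 19, beside 34.8% of all genes. As the list was chosen with earlier results of these data known, nothing is read from these shares. The split was 5 higher and 6 lower, and the median 0.07, with the GC content and length correction. In that fit 5046 of 15986 genes passed, 3408 of them lower. BIRC3, an inhibitor of apoptosis that is also a classical NF-kappaB target, had 1834.1, 1674.3 and 2346.7 units in siKIF15 libraries, against 280.8, 303.3 and 287.1 in NC libraries. Its log2 difference of 2.73 ± 0.12 (SE; limma, adjusted p = 1.83e-10) was the largest of the list. CEBPD, a transcription factor of the acute phase response, averaged 2458 ± 364 in siKIF15 and 1195 ± 29.3 in NC (1.03; limma, adjusted p = 3.27e-06). NFKBIA, the inhibitor of NF-kappaB, averaged 8662 ± 582 in siKIF15 and 6087 ± 110 in NC (0.51; limma, adjusted p = 0.000113). The metallothionein MT2A was also higher, at 0.52 (limma, adjusted p = 0.00338).

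In the other direction, the transcription factor KLF15 averaged 1747 ± 118 in siKIF15 and 2430 ± 104 in NC (log2 difference −0.48; limma, adjusted p = 0.000693). The clock gene PER1 averaged 1713 ± 149 in siKIF15 and 2473 ± 233 in NC (−0.53; limma, adjusted p = 0.000861). FKBP5, the co-chaperone gene induced by glucocorticoid, progesterone and androgen alike, had 3023.7, 2798.9 and 3424.9 in siKIF15 libraries, against 2903.0, 2714.2 and 2827.4 in NC libraries (0.13; limma, adjusted p = 0.327). TSC22D3, which encodes the glucocorticoid-induced leucine zipper, had 2859.0, 3119.1 and 2798.0 in siKIF15 libraries, against 2992.4, 3004.6 and 3016.0 in NC libraries (−0.04; limma, adjusted p = 0.754). The groups overlapped for both of these genes, and with the GC content and length correction FKBP5 was at 0.28 (adjusted p = 0.000554) and TSC22D3 at −0.22 (adjusted p = 0.00217). That correction gave 0.18 for MT2A and 0.28 for NFKBIA. The call on MT2A ended without siKIF15 1 (limma, adjusted p = 0.0822) or NC 2 (0.0587). Calls on MT2A and PER1 also ended without the variance trend. Without siKIF15 1 the list had 5 calls in place of 10, and all genes had 1184 in place of 2978.

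In the mineralocorticoid axis, 4 of 11 genes were higher and 0 lower, with a median of 0.25. The share called was 36.4%, beside 18.0% of all genes tested and 9.66% that were higher, and libraries did not overlap for 7 of 11, beside 34.8% of all genes. They included subunits of the epithelial sodium channel and the enzyme that inactivates cortisol. SCNN1G had 54.1, 58.6 and 92.6 units in siKIF15 libraries, against 17.7, 20.6 and 25.7 in NC libraries, a log2 difference of 1.61 ± 0.31 (SE; limma, adjusted p = 0.00199). SCNN1A averaged 12722 ± 530 in siKIF15 and 9446 ± 575 in NC (0.43; limma, adjusted p = 0.000511). HSD11B2 differed by 0.25 (limma, adjusted p = 0.0266). The call on HSD11B2 ended without siKIF15 1 (limma, adjusted p = 0.151), siKIF15 2 (0.0718), NC 1 (0.0608), NC 2 (0.128) or NC 3 (0.138). That call also ended with libraries scaled to the same total (limma, adjusted p = 0.054) and without the variance trend. With the GC content and length correction SCNN1A was at 0.28 and HSD11B2 at 0.07 (adjusted p = 0.233). Under that correction and under scaling to the same total 3 genes were higher and 1 lower, and under quantile normalization 4 were higher and 1 lower. Over all genes 5046, 2958 and 3104 passed under these settings, in that order.

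Of 12 progesterone targets tested, 2 were higher and 2 lower in siKIF15, the group in which PGR was lower, and the median was 0.07. The share called was 33.3%, beside 18.0% of all genes tested, and libraries did not overlap for 5 of 12, beside 34.8% of all genes. After correction for GC content and length 2 were higher and 3 lower, with a median of −0.09, in the fit where 5046 of 15986 genes passed. CCND1, the cyclin D gene that drives entry into DNA replication, averaged 17567 ± 437 in siKIF15 and 26764 ± 575 in NC (SD, n = 3 each), a log2 difference of −0.61 (limma, adjusted p = 7.82e-06). The insulin receptor substrate gene IRS2 had 105.6, 91.0 and 116.5 units in siKIF15 libraries, against 228.1, 231.6 and 211.2 in NC libraries, a difference of −1.10 ± 0.18 (SE; limma, adjusted p = 0.000455). STAT5A, a prolactin-activated transcription factor, was higher by 0.39 (limma, adjusted p = 0.00765), as was ZBTB16, a zinc finger repressor induced by progesterone and glucocorticoid, by 0.42 (adjusted p = 0.00404). The call on STAT5A ended without siKIF15 1 (limma, adjusted p = 0.0699) or NC 1 (0.0616), and that on ZBTB16 without siKIF15 1 (0.0679) and with the GC content and length correction (0.23, adjusted p = 0.0617). Calls on STAT5A and ZBTB16 also ended without the variance trend. Without siKIF15 1 the list had 2 calls, both lower, and all genes had 1184 in place of 2978. Lists can share genes, and ZBTB16 is counted among the glucocorticoid targets as well.

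Among estrogen targets, TFF1 stood apart. Of 26 tested, 6 were higher and 4 lower, PGR itself among the lower ones, with a median of −0.01. The share called was 38.5%, beside 18.0% of all genes tested, and libraries did not overlap for 13 of 26, beside 34.8% of all genes. Correcting for GC content and length gave 6 higher and 6 lower, in the fit where 5046 of 15986 genes passed. TFF1, a secreted trefoil peptide, was listed at 219.6, 165.0 and 108.7 in siKIF15 libraries, against 1.8, 0.0 and 0.0 in NC libraries (limma, adjusted p = 5.61e-08). No fold is given against values listed at 0, and the log2(signal + 1) difference moved with the pseudocount, from 6.80 at 1 to 4.88 at 5. GREB1, a coactivator that is among the most estrogen-dependent genes of breast cells, had 164.8, 128.7 and 182.4 in siKIF15 libraries, against 181.1, 175.8 and 179.1 in NC libraries, with overlap and a log2 difference of −0.19 (limma, adjusted p = 0.529). The stress-response factor XBP1 averaged 29665 ± 1330 in siKIF15 and 16898 ± 144 in NC (0.81; limma, adjusted p = 3.71e-07). The protease CTSD (0.40, adjusted p = 0.00222) and the secretory protein gene AGR2 (0.68, adjusted p = 0.00894) were higher by the same limma test. MYC was 1 of the 4 lower genes, at −0.25 (limma, adjusted p = 0.0214). Most genes of this list were named by their adjusted p, so those named do not show its balance of 6 higher and 4 lower. With the GC content and length correction CTSD was at 0.24. Calls on CTSD and AGR2 ended without the variance trend. The list had 6 calls without siKIF15 1 or NC 1, in place of 10. Over all genes these fits had 1184 and 1802 calls, in place of 2978.

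Of 19 genes bound by or acting with ERR alpha, 1 was higher and 1 lower, with a median of −0.00. The share called was 10.5%, below the 18.0% of all genes tested, and libraries did not overlap for 7 of 19, beside 34.8% of all genes. With the GC content and length correction 0 were higher and 10 lower, with a median of −0.14, in the fit where 5046 of 15986 genes passed. The lower gene, OGDH, which encodes an enzyme of the citric acid cycle, averaged 18296 ± 754 in siKIF15 and 21769 ± 521 in NC (SD, n = 3 each). Its log2 difference was −0.25 (limma, adjusted p = 0.0153). The call on OGDH ended without NC 1 (limma, adjusted p = 0.061), NC 2 (0.0719) or NC 3 (0.103), and without the variance trend. The list had 1 call without siKIF15 1, 6 without siKIF15 3 and 0 without NC 1, NC 2 or NC 3. Over all genes these fits had 1184, 5077, 1802, 1366 and 1723 calls, in that order, in place of 2978.

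**Figure D4:**
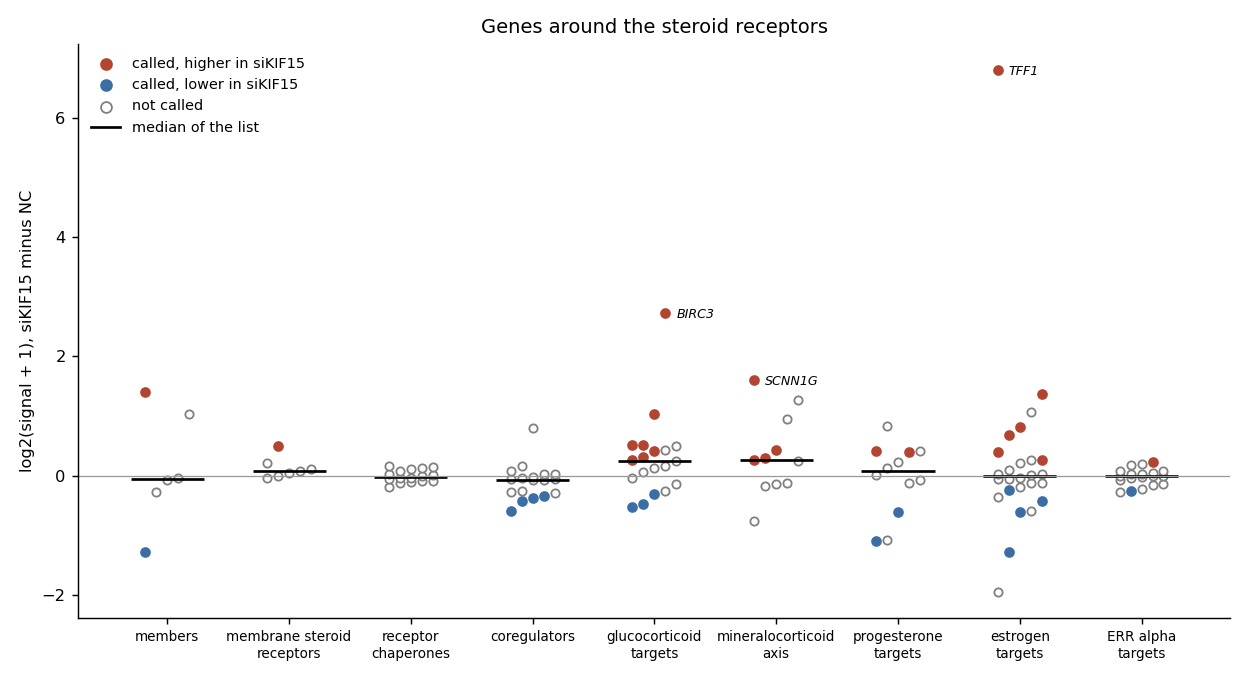
Log2 difference (siKIF15 minus NC) of the 6 receptors and of each list around them, 1 point per gene tested. Red points passed higher in siKIF15, blue points passed lower, grey circles did not pass, and bars are list medians. Without correction for GC content and length, the medians of the glucocorticoid and mineralocorticoid lists lie at 0.25, and the other medians lie within 0.1 of 0.

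The genes whose pattern over the 6 libraries was most like that of PGR, among 11383 genes with means of 100 or more, were FAM46C, NPC1 and CAP2. Their Pearson correlations with PGR on the log2(signal + 1) scale were 0.998, 0.996 and 0.996. The difference between groups was not removed, so all correlations in this paragraph include it. FAM46C had a mean of 1206 in siKIF15 and 1736 in NC, NPC1, which exports cholesterol from lysosomes, 3301 in siKIF15 and 5214 in NC, and CAP2 1065 in siKIF15 and 1715 in NC. For NR3C1 the most similar genes were ADM2 (0.992), LOC100996318 (0.986) and KCNG3 (0.983). ADM2, a peptide hormone gene, had a mean of 854 in siKIF15 and 679 in NC. Correlations above 0.9 were reached by 790 genes for PGR and by 210 of 11384 for NR3C1.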

How the data were processed

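RNA-seq was compared between 3 siKIF15 and 3 NC libraries, grouped by the sample titles. Each deposited file gives 1 signal value for every gene symbol, without a header that names the unit. From the values, the signal appears to be gene counts adjusted by the authors to a common library size. Whole reads were not recovered, so the depth of each library is unknown and no counting interval is given. The submitters' processing notes name Bowtie 0.12.2 together with mm8 and mm9, which are builds of the mouse genome, whereas the labelled organism is human. Per the labels' protocols, library preparation followed Illumina's standard steps. Which human build and annotation were used, and whether counting used strand, is not given in the sources used here.

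Of the tests the design named, 1 for counts and 1 for normalized values, the second was used: limma 3.58.1 (R 4.3.3) with a variance trend on log2(signal + 1), all 6 libraries in 1 fit without covariates, over the 16548 genes whose mean reached 1 in either group. P-values were adjusted by Benjamini-Hochberg over all genes tested, with a threshold of 0.05. The procedure was tested on simulated data. The receptors and all gene lists were chosen with earlier results of these data known, and lists are described by counts and medians. Named genes were the receptors and their relatives, KIF15, up to 6 genes per list with the smallest adjusted p past the threshold, and FKBP5, TSC22D3, GREB1, TFF1 and PPARGC1A. Some of these are not reported here. For PGR and NR3C1 the 3 genes with the most similar pattern were added, and MYC was added as a lower gene of the estrogen list. Alternatives were a pseudocount of 0.5 or 5, no filter or a minimum mean of 10, scaling to the same total, quantile normalization, no variance trend, a replicate block, a GC content and length correction from GENCODE v29 transcripts, and each library left out. Same-numbered libraries did not deviate together (correlations 0.02, −0.02 and 0.02 over 16548 genes), so the numbers were not used as pairs. Promoter sequences are from RefSeq (GRCh38.p14).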

Additional observations from a re-analysis of the deposited data

How the results depend on the processing

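Without the variance trend 1070 genes passed, and with the GC content and length correction 5046, against 2978. With that correction PGR was at −1.01 and ESRRA at −0.24. Quantile normalization, with 3104 genes passing, gave 2 calls among chaperones and 4 among ERR alpha targets. Without the variance trend there were 0 calls among coregulators, 4 among glucocorticoid targets, 2 among progesterone targets, 4 among estrogen targets, 0 among ERR alpha targets and 3 among other nuclear receptors. The GC content and length correction gave 9 calls among chaperones, 7 among coregulators and 10 among ERR alpha targets, all of these 10 lower. The replicate block, a fit with the numbers as pairs, gave 3184 genes, 7 coregulators and 4 ERR alpha targets, and changed no call on a receptor. With each library left out in turn, between 1184 and 5077 genes passed. Calls then ranged from 0 to 1 for a list of 3 related receptors, 0 to 2 for chaperones, 1 to 8 for coregulators, 5 to 10 for glucocorticoid targets, 3 to 6 for the mineralocorticoid axis, 2 to 4 for progesterone targets, 6 to 12 for estrogen targets, 0 to 6 for ERR alpha targets and 4 to 12 for other nuclear receptors. The log2 differences then ranged from −1.34 to −1.20 for PGR, 1.12 to 1.77 for NR3C1, −0.45 to −0.09 for NR3C2, 0.19 to 1.85 for ESR1 and −0.30 to 0.14 for ESR2. Of 39 named genes outside the 6 receptors, 31 passed and 16 of these lost the call in at least 1 alternative, 16 without the variance trend, and 0 reversed. The causes were not tested. NR3C1, ESR1, ESR2, NR3C2, ESRRB, ESRRG and RXRG are limited by low signal.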
